A study of Rattus norvegicus with 10 samples.

Results

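The genes described here encode the first component of complement and the protein it acts through: C1qa, C1qb and C1qc, the 3 chains of the recognition protein C1q, C1r and C1s, its 2 proteases, and C3, the central protein of the cascade. They were chosen on measured values, namely their signal, their ratio to control and their slope with the level of restriction in earlier work on the same arrays, so those values are given here as a description and carry no test. Each of the 6 genes is carried alone by 1 probe set, so the genes make up 6 of 31099 probe sets on the array and 6 of 14218 genes with a probe set of their own.

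RNA came from the gastrocnemius, a calf muscle, of male Wistar rats that were bought at 5 weeks of age, housed singly and started on restriction at 6 weeks. Control rats received their full daily intake, and the other groups had 5%, 10%, 20% or 30% of it withheld (calorie restriction, CR) for 1 week or 1 month, after which muscle was taken following a 16 h fast. The RNA of a group's 5 rats was mixed in equal parts and put on 1 Affymetrix rat expression array, which gave 10 arrays for 10 groups, 2 of them controls. No group has a second array, so the spread between rats is not measured, and every ratio within a duration rests on the same single control array.

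C1q is a hexamer of trimers built from its A, B and C chains, and it starts the classical pathway when its globular heads meet antibody-bound or otherwise marked surfaces, dying cells included. C1r then activates C1s, which cleaves C4 and C2, and the resulting enzyme cleaves C3. Most circulating complement is made by the liver, but C1q is made chiefly by tissue macrophages and dendritic cells, while fibroblasts and other stromal cells make C1r and C1s.

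In the RefSeq annotation of GRCr8, C1qb, C1qc and C1qa lie side by side on chromosome 5, within 17658 bases (154402276 to 154419933). C1r and C1s are neighbours on chromosome 4 (159099013 to 159128736), and C3 lies on chromosome 9 (2174412 to 2201339). RefSeq promoter windows were given for C1qa, C1qb, C1r and C3, 4 of the 6 genes. The windows of C1qa and C1qb are shown because these neighbouring genes moved together at 1 month: each holds the 250 bases before the gene's start, both are on the minus strand and are written 5′ to 3′, and capitals mark the letters searched for on both strands.
C1qa, chr5:154419934-154420183, minus strand: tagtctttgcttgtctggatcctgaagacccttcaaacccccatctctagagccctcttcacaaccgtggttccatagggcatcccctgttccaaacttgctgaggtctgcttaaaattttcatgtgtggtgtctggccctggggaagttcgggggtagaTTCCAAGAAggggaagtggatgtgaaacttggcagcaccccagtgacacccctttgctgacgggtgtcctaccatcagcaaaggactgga
C1qb, chr5:154407828-154408077, minus strand: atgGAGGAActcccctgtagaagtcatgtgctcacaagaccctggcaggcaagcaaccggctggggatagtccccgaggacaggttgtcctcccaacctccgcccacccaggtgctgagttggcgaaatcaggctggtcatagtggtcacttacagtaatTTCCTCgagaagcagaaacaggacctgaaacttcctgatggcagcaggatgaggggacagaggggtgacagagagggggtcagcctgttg

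The core letters of PU.1, a factor of myeloid cells, GAGGAA, occurred 2 times in the C1qb window and not in that of C1qa. The C1r window, not shown, also held GAGGAA, so these letters were not particular to the C1q chains. TTCNNNGAA, the letters bound by STAT factors, occurred in the C1qa window. None of the 4 windows held TATAAA, and none of the matches overlapped another. Of 33469 rat promoter windows of this length, 23.3% held GAGGAA, 7.67% TTCNNNGAA and 12.9% TATAAA, so such matches are frequent and are given only as a description of these windows.

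All values are MAS5 signals, a scanner brightness summarised per probe set and scaled per array by the authors, and levels are not compared between probe sets. C1qa, C1qb, C1qc, C1r and C1s lay above the median probe set in mean log2 signal and entered the fits across 15521 probe sets. C3 lay below it (geometric mean signal 6.25, against a limit of 17.8) and was not fitted.

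At 1 month the C1q chains stood higher on the restricted arrays, in the order of the level of restriction. Since whole muscle was measured, more cells of a type and more RNA per cell cannot be told apart in any value here. For C1qa the signal was 72.6 in the control and 86.8, 95.1, 123.4 and 168.8 at 5%, 10%, 20% and 30% CR. This is an unbroken climb, and the array of 30% CR was the highest of all 10. C1qb gave 46.5 in the control and then 44.2, 54.2, 78.2 and 110.3. Its first step was slightly down, and the climb came at 10% CR and above. C1qc gave 37.8 in the control and then 61.7, 75.0, 76.6 and 127.9. It rose mainly at the first and the last step, and 10% and 20% CR lay close together.

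The plots of signal by level show the climb in the top row. At 30% CR for 1 month the fold of control was 2.33 for C1qa, 2.37 for C1qb and 3.38 for C1qc (log2 ratios of 1.22, 1.25 and 1.76). A log2 ratio of 1 or more at that level was found for 1.30% of the probe sets tested, and 3 of the 5 complement genes fitted, the C1q chains, were past it. C1qa and C1qc were higher at each of the 4 steps, as were 1.53% of all probe sets. All 4 restricted arrays were above control for C1qa, C1qc, C1r and C1s, as for 24.4% of all probe sets. These shares are the background for genes that were chosen on the same ratios, and nothing is read from the difference.

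**Figure D1:**
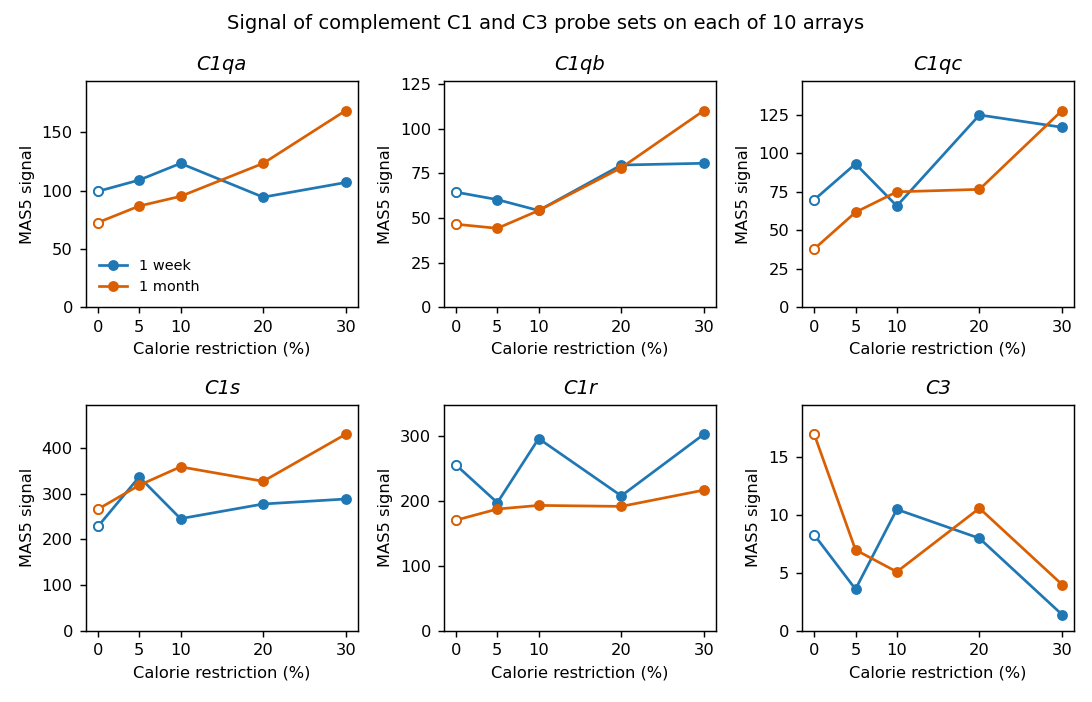
MAS5 signal (linear axis from 0) of each of the 6 complement genes against the level of calorie restriction in percent, 1 point per array, with 1 week in blue, 1 month in orange and open points for the controls. The C1q chains climb with the level at 1 month, C1r changes little there, and C3 stays at a low signal.

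At 1 week the 3 chains did not share an order. C1qa was 99.4 in the control and 109.1, 123.4, 94.4 and 107.0 at the rising levels, so it was highest at 10% CR and below control at 20% CR. C1qb was 64.5 in the control and then 60.3, 54.2, 79.7 and 80.7. It lay below control at the 2 lower levels and above it at the 2 higher ones. C1qc was 69.8 in the control and then 93.2, 65.8, 125.0 and 117.0, with 10% CR again below control.

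Their log2 ratios at 30% CR for 1 week were 0.11, 0.32 and 0.75 for C1qa, C1qb and C1qc, against the mark of 1 that 1.87% of all probe sets reached. None of the complement genes was higher at each of the 4 steps at 1 week, a pattern of 1.74% of all probe sets. C1s alone was above control on all 4 restricted arrays, as were 23.9% of probe sets. As the 3 chains had control signals of 99.4, 64.5 and 69.8 at 1 week and of 72.6, 46.5 and 37.8 at 1 month, all of them started lower at 1 month. The arrays at 30% CR, in turn, were higher at 1 month than at 1 week for each chain (168.8 against 107.0, 110.3 against 80.7 and 127.9 against 117.0). Both sets of values are unadjusted for the scaling of the 2 durations, which is described with the duration comparison.

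Averaged over the 3 chains, the log2 ratio to control at 1 month was 0.30, 0.53, 0.84 and 1.41 at 5%, 10%, 20% and 30% CR. The mean over these levels was 0.77 ± 0.48 (SD over n = 4 levels, not replicates). At 1 week the corresponding values were 0.15, -0.01, 0.36 and 0.39, with a mean of 0.22 ± 0.19. With the arrays of the 1-week control and 5% CR exchanged, the 1-week mean was 0.034; a second line in the labels of these 2 arrays states the opposite feeding, so each 1-week value here depends on which label holds.

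The slope of log2 signal, per 10 percentage points of restriction, describes the same arrays in 1 value per gene, with the standard error taken from 5 arrays around the line. At 1 month it was 0.39 ± 0.02 for C1qa, 0.45 ± 0.05 for C1qb and 0.49 ± 0.11 for C1qc. At 1 week it was -0.01 ± 0.07, 0.16 ± 0.08 and 0.27 ± 0.13 in the same order. Over all probe sets tested the median slope was -0.0019 at 1 month, with 0.184 at the 95th percentile, and -0.0043 at 1 week, with 0.193. Leaving out any one array, the slope at 1 month stayed between 0.37 and 0.40 for C1qa, 0.41 and 0.53 for C1qb, and 0.38 and 0.53 for C1qc. The value of C1qc was lowest without the control array, and those of C1qa and C1qb were lowest without the array of 30% CR.

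**Figure D2:**
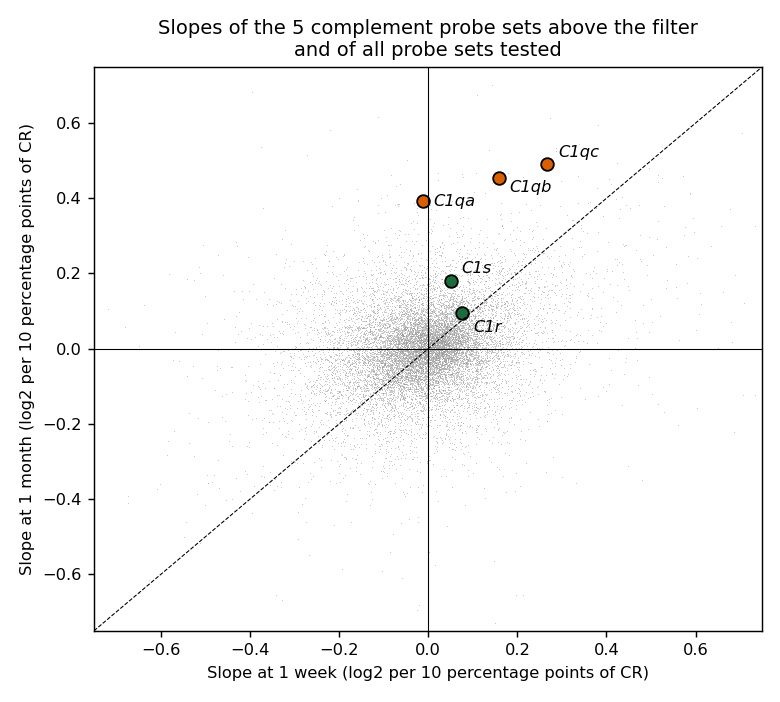
Slope of log2 signal per 10 percentage points of calorie restriction at 1 week (horizontal) and 1 month (vertical) for 15521 probe sets (grey, 24 of them outside the axes), with C1qa, C1qb and C1qc in orange and C1s and C1r in green. The C1q chains lie high on the 1-month axis (0.39 to 0.49) and spread along the 1-week axis (-0.01 to 0.27), while C1r lies near the mass of probe sets.

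The fit to all 10 arrays allowed each duration its own level. Its common slope was 0.31 ± 0.07 for C1qb and 0.38 ± 0.07 for C1qc. The common slope was 0.19 ± 0.07 for C1qa, 0.12 ± 0.05 for C1s and 0.09 ± 0.05 for C1r. Of all probe sets 0.941% passed the threshold upward in this fit and 1.06% downward. The 8 restricted arrays were also set against the 2 controls. Of the 5 complement genes, C1qc had the highest estimate there (0.80 ± 0.26), and C1r the lowest (0.08 ± 0.15). In that contrast 1.13% of probe sets passed as higher and 0.876% as lower. As the genes were chosen on these contrasts, the estimates are a description. The shares are background only, and no call is given for the 5 genes.

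At 1 month the proteases had smaller ratios at 30% CR and smaller slopes than the C1q chains. C1s gave 266.0 in the 1-month control and 318.6, 358.8, 327.2 and 430.2 on the restricted arrays, a log2 ratio of 0.69 at 30% CR and a slope of 0.18 ± 0.06. All 4 restricted arrays lay above the control, though 20% CR fell below 10% CR. At 1 week C1s gave 228.3 in the control and then 336.8, 245.4, 277.5 and 288.4. The highest 1-week array was that of 5% CR, the mildest level, and the slope was 0.05 ± 0.10. Its mean log2 ratio over the 1-week levels, 0.32, was above those of C1qa (0.12) and C1qb (0.07) and below that of C1qc (0.48).

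C1r gave 170.5 in the 1-month control and 187.6, 193.2, 191.7 and 216.8 on the restricted arrays, a narrow range with a log2 ratio of 0.35 at 30% CR and a slope of 0.09 ± 0.02. At 1 week it alternated, with 255.4 in the control and then 197.4, 296.2, 207.9 and 302.9. The 1-week slope of 0.08 ± 0.13 turned to -0.08 without the array of 30% CR. C1r and C1s are neighbours in the genome and partners in the C1 complex, but over the 10 arrays, each gene centred within its duration, their correlation was -0.02. For comparison, the values were 0.84 for C1qb and C1qc, 0.76 for C1qa and C1qb, and 0.66 for C1qa and C1qc (Pearson's r over 10 arrays that share 2 controls, a description only). With C1s they were 0.64 for C1qa, 0.59 for C1qb and 0.84 for C1qc. With C1r they were 0.49, 0.28 and 0.16 in the same order.

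C3 was near the floor of the array. Its signal was 8.3 in the 1-week control and 3.6, 10.5, 8.0 and 1.4 on the restricted arrays, and 17.0 in the 1-month control and then 7.0, 5.1, 10.6 and 4.0. The 1-month control was the highest of the 10 arrays, and all 4 restricted arrays of that duration lay under it. All of these are below the limit set for testing, so C3 has no test, and no fold is given. Its slope of -0.61 at 1 week became 0.20 without the array of 30% CR.

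The contrast between durations is not among the ratios and slopes that chose the genes, and it was tested with limma across 15521 probe sets while adjusting for the level of restriction. Their signals on all 10 arrays were known when they were chosen, so its p-values are not independent of the choice. All groups started at the same age, so the 1-month rats were older and had grown for longer when muscle was taken. Duration therefore cannot be told apart from age, or from any other difference between the arrays of the durations. The authors' scaling differed between the durations: the trimmed mean signal was 99.6 on the 1-week arrays and 86.4 on the 1-month arrays, and the median probe set was 0.21 lower at 1 month on the log2 scale. In this fit 1.13% of probe sets were higher at 1 month and 32.8% were lower. With each array centred on its median these shares were 6.14% and 2.78%, and with quantile normalization 4.61% and 5.53%, so the direction of a small difference depends on the scaling.

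C1s was higher at 1 month than at 1 week by 0.30 ± 0.10 on the log2 scale (limma, adjusted p = 0.039), and by 0.59 with median centring (adjusted p = 0.00351) and 0.49 with quantile normalization (adjusted p = 0.00975). Relative to the median probe set the difference was 0.51. Of 18 alternatives, 10 took its adjusted p past the threshold, up to 0.115 without the array of 30% CR for 1 month, while the estimate stayed between 0.24 and 0.59. C1r was lower at 1 month by -0.37 ± 0.11 (adjusted p = 0.0167), but the difference was -0.08 with median centring (adjusted p = 0.740) and -0.18 with quantile normalization (adjusted p = 0.351). Its difference relative to the median probe set was -0.16. Without the array of 30% CR for 1 week, the adjusted p of C1r was 0.055.

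No C1q chain passed in the duration contrast. The difference was -0.02 ± 0.15 for C1qa (limma, adjusted p = 0.916), -0.10 ± 0.14 for C1qb (adjusted p = 0.606) and -0.37 ± 0.16 for C1qc (adjusted p = 0.0793). Median centring turned the sign for C1qa (0.27) and C1qb (0.19) but not for C1qc (-0.08), as did quantile normalization (0.19, 0.13 and -0.16), and again none passed. C1qc did pass without the 1-week array of 10% CR (adjusted p = 0.0393) or of 30% CR (adjusted p = 0.0453). The duration contrast averages over the levels, and it does not ask whether the slope of C1q differed between durations. That difference was not tested, since the slopes had chosen the genes.

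The rest of the complement system was read from fixed gene lists. Of 45 other complement genes, 35 had a probe set, and 17 passed the filter on low signal. With the level of restriction 2 of these 17 rose, none fell and 15 did not pass (median slope 0.02, against -0.0033 over all probe sets). Of all probe sets 0.941% passed upward and 1.06% downward. At an unadjusted p under 0.05, 3 of the 17 were higher, as were 6.53% of all probe sets. In restricted against control arrays none of the 17 passed with limma, and 4 were higher at an unadjusted p under 0.05, as were 7.81% of all probe sets. Most of the liver-type components, such as C5, C6, C8a, C8b and C9 of the membrane attack pathway, were under the filter.

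Cfd, which encodes factor D, the protease of the alternative pathway and a product of fat cells, rose with the level of restriction by 0.43 ± 0.07 per 10 percentage points (limma, adjusted p = 0.00802). Its signal was 55.5, 54.0, 90.1, 65.1 and 145.6 from control to 30% CR at 1 week and 51.4, 85.3, 82.7, 99.3 and 156.6 at 1 month. The array of 30% CR was the highest at both durations, but the adjusted p was 0.0841 without that of 1 week and 0.0577 with eBayes without trend. Of the adipocyte markers, 2 of 6 passed the filter and neither passed in the dose trend (1 at an unadjusted p under 0.05), with a median log2 ratio at 30% CR of 0.81 at 1 week and 0.43 at 1 month, and their part in Cfd was not tested. Serping1, the inhibitor that removes C1r and C1s from the C1 complex, rose by 0.17 ± 0.04 (adjusted p = 0.0216). Its signal was 251.1, 298.7, 288.9, 300.1 and 343.9 at 1 week and 254.9, 287.8, 257.3, 357.5 and 403.7 at 1 month. Both controls lay below every restricted array of their duration, but 6 of 18 alternatives took the adjusted p past the threshold, up to 0.115.

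The other complement groups held no gene that passed in these contrasts. Fcna, a ficolin of the lectin pathway, came nearest in restricted against control arrays, with 35.9 in the 1-month control and 50.5, 51.4, 56.6 and 78.8 on the restricted arrays (estimate 0.60, limma, adjusted p = 0.0933). Its slope of 0.18 had an adjusted p of 0.240. None of the 5 receptors tested passed, among them C1qbp, a binding protein of C1q, with a slope of 0.0012 (adjusted p = 0.991), and Calr, calreticulin (-0.03, adjusted p = 0.559). Of 10 tested relatives with a C1q domain, none passed in either contrast, and 3 in the dose trend and 2 in restricted against control were higher at an unadjusted p under 0.05 (6.53% and 7.81% of all probe sets). C1qtnf1 was closest in restricted against control arrays (0.86, adjusted p = 0.0555), and Adipoq, the fat cell hormone adiponectin, in the dose trend (0.32, adjusted p = 0.134).

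Between durations most calls of these lists depended on the scaling. As deposited, 1 regulator was higher at 1 month with limma and 2 were lower (Vtn, vitronectin, and Cr1l), 3 receptors were lower (Cd93, Lrp1 and Calr), 6 of 10 relatives were lower, and of the lectin pathway Colec12 was lower. After median centring, 2 regulators, 1 receptor and Masp1, a protease of the lectin pathway, were higher, none of these groups held a lower gene, and 2 relatives, C1qtnf2 and C1qtnf3, were lower. With quantile normalization Colec12 (-0.32, limma, adjusted p = 0.0432), Lrp1 (-0.40, adjusted p = 0.0303) and the same 2 relatives were lower. Masp1 (0.22, adjusted p = 0.0116) and the receptor C1qbp (0.20, adjusted p = 0.0230) were higher there, as with median centring. The regulator that was higher under every scaling was Cd55, which speeds the decay of the enzymes that cleave C3 (0.26, adjusted p = 0.0481 as deposited).

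Some macrophage markers rose with the level of restriction, and others showed no such slope. Of 20 listed markers 17 had a probe set, 15 passed the filter and none was at 0 on all arrays. At 30% CR for 1 month all 15 tested markers were above control, with a median log2 ratio of 0.74, and at 1 week 11 were, with a median of 0.23. Over all probe sets tested the median ratio at 30% CR was -0.016 at 1 month and -0.0038 at 1 week. Each of these counts rests on 1 control array. The summed signal of the list was 989.1 in the 1-month control and 1009.1 to 1729.4 on the restricted arrays, and 1037.4 and 1225.5 to 1395.2 at 1 week.

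Of the 15, 3 rose with the level of restriction, none fell and 12 did not pass, while 0.941% of all probe sets passed upward. The slope was above 0 for 14 of the 15. At an unadjusted p under 0.05 (limma) 7 of the 15 were higher, as were 6.53% of all probe sets. Lyve1, a hyaluronan receptor of perivascular macrophages and of lymphatic vessels, rose by 0.37 ± 0.04 (limma, adjusted p = 0.00131). Its signal was 134.5, 197.2, 163.2, 227.8 and 271.0 from control to 30% CR at 1 week and 130.8, 165.7, 190.0, 234.8 and 350.9 at 1 month. It climbed at every step of the 1-month series, as C1qa and C1qc did. F13a1, coagulation factor XIII A, which resident macrophages express, rose by 0.32 ± 0.05 (adjusted p = 0.00464), from 46.3 in the 1-month control to 105.0 at 30% CR. Ctss, the lysosomal protease cathepsin S, rose by 0.27 ± 0.05 (adjusted p = 0.00728), though not without the 1-week array of 30% CR (adjusted p = 0.0619). The calls of Lyve1 and F13a1 held under all 18 alternatives.

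Cd163, a haemoglobin scavenger receptor, was higher in restricted than in control arrays (1.25 ± 0.23, limma, adjusted p = 0.0123), with a signal of 13.3 in the control of 1 week and from 39.2 to 53.2 after restriction. That call rested on the 1-week control: without it the adjusted p was 0.272, and with the 1-week control and 5% CR arrays exchanged it was 0.841. The lowest slopes of the 15 were 0.02 for Cd68 (adjusted p = 0.959) and -0.04 for Csf1r, the receptor for the macrophage growth factor (adjusted p = 0.840). Cd14 (0.25, adjusted p = 0.0775) and Mrc1 (0.15, adjusted p = 0.196) had higher slopes and did not pass either. Of the brightest markers beside Lyve1 and Ctss, Lyz2, lysozyme, had a slope of 0.16 (adjusted p = 0.0684) and Fcer1g, an adaptor of Fc receptors, one of 0.12 (adjusted p = 0.355). Antigen presentation genes, which dendritic cells and activated macrophages carry, had 0 of 8 past the threshold with limma in either contrast, and none at an unadjusted p under 0.05.

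At 1 month C1q climbed further than the mean of the macrophage list. The C1q genes were chosen on their ratios and slopes and the list was not, so nothing is read from this lead. The highest ratio on the list at 30% CR for 1 month, that of Lyve1, was 1.42, against 1.41 for the C1q mean. The mean log2 of the 3 chains less the mean of the 15 markers stood above its control value by 0.09, 0.30, 0.29 and 0.69 at 5%, 10%, 20% and 30% CR. At 1 week the same difference was -0.11, -0.26, 0.07 and 0.08. How far the number of macrophages accounts for C1q was not tested.

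**Figure D3:**
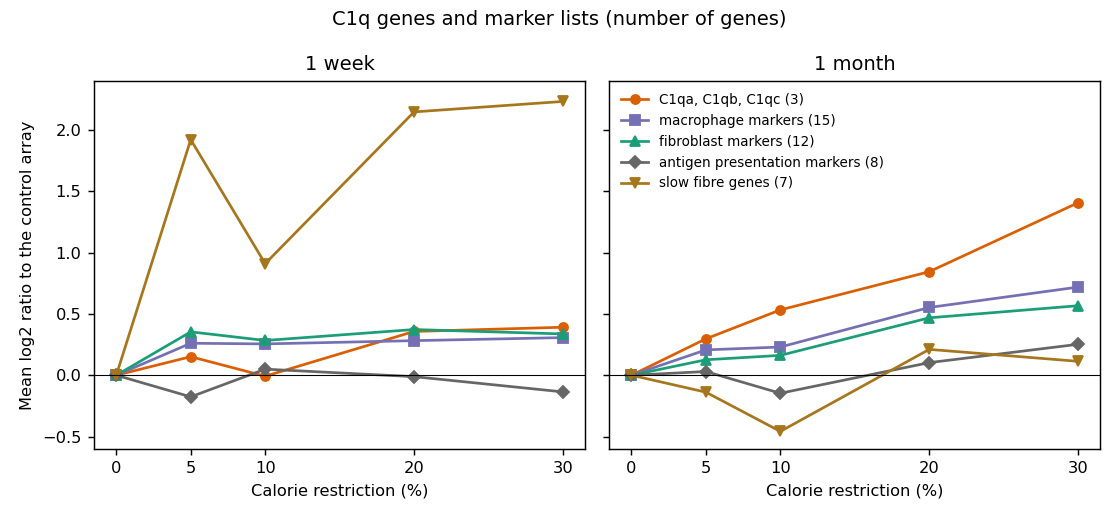
Mean log2 ratio to the matching control for C1qa, C1qb and C1qc and for 4 marker lists, against the level of calorie restriction in percent, at 1 week and at 1 month, with the number of genes in parentheses. At 1 month C1q reaches 1.41, macrophage markers 0.72 and fibroblast markers 0.57; at 1 week slow fibre genes reach 2.23 against a control that is low for them.

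Of the markers of fibroblasts, which make C1r and C1s, a part rose. All 12 had a probe set and were tested, and 12 of 12 were above control at 30% CR for 1 month (median log2 ratio 0.74), as were 10 of 12 at 1 week (0.35). The medians over all probe sets tested were -0.016 and -0.0038. With the level of restriction 4 of the 12 rose, none fell and 8 did not pass, while 0.941% of all probe sets passed upward. The 4 were Dcn, the matrix proteoglycan decorin (0.10, limma, adjusted p = 0.0489), Scara5, a ferritin receptor (0.21, adjusted p = 0.0332), Clec3b, tetranectin (0.21, adjusted p = 0.0216), and Mfap5, a microfibril protein (0.20, adjusted p = 0.0236). All 4 calls were lost when either control or the 1-month array of 30% CR was left out, with eBayes without trend, and with the 1-week control and 5% CR arrays exchanged. That of Dcn was lost in 15 of 18 alternatives, median centring (adjusted p = 0.104) and quantile normalization (adjusted p = 0.0966) among them. The fibrillar collagens Col1a1, Col1a2 and Col3a1 did not pass (0.13, 0.19 and 0.05).

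Of the endothelial markers, 1 of 4 fell, Kdr, the VEGF receptor (-0.36, limma, adjusted p = 0.00153), and 3 did not pass (Pecam1, Tek and Vwf, with -0.06, -0.06 and 0.16). Of all probe sets 1.06% passed downward. No hepatocyte marker of 6 and no neutrophil or lymphocyte marker of 5 with a probe set lay above the filter. The muscle label matched the fibre genes, since the fast fibre list reached a mean log2 signal of 13.10 in the 1-week control. The slow fibre list was at 8.52 in the 1-week control against 10.75 at 30% CR for 1 week, and all 4 restricted arrays of that duration were 0.91 to 2.23 above it on average. At 1 month the restricted arrays differed from control by -0.46 to 0.21. The fast fibre list, at 13.16 in the 1-month control, was lower on all 4 restricted arrays of that duration. These differed from control by -0.61 to -0.25 on average, against 0.08 to 0.14 at 1 week. The part of these fibre differences in the ratios of complement genes or marker lists at either duration was not tested.

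Finally, all 9165 genes that passed the filter with a probe set of their own were ranked by the correlation of their centred log2 signal with the mean of the 3 C1q chains over 10 arrays. The median r was 0.02 and the 95th percentile 0.67, and the 10 highest had r from 0.91 to 0.95. They were Haus8 (a subunit of the augmin complex of the spindle), Fndc1, Pla2g2d (a secreted phospholipase of myeloid cells), Lyve1, Prkacb (a catalytic subunit of protein kinase A), Dpyd (which degrades pyrimidines), Med6 (a Mediator subunit), F13a1, Dipk1b and Postn (periostin, a matrix protein). Lyve1 and F13a1 of the macrophage list were thus 4th and 8th of 9165. Over the macrophage list the median r was 0.66, from 0.95 for Lyve1 to 0.20 for Aif1, 0.11 for Csf1r and 0.10 for Cd68.

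The log2 ratio at 30% CR for 1 month was 1.46 for Haus8, 1.42 for Lyve1, 1.18 for F13a1, 1.56 for Pla2g2d and 0.21 for Med6, so the size of the change differs widely among them. Pla2g2d went from 11.8 in the 1-month control to 34.8 at 30% CR, and only from 22.2 to 25.3 at 1 week. Haus8 (signals of 9.9 to 31.3), Pla2g2d (11.8 to 34.8) and Dpyd (14.6 to 26.5) lay near the limit of 17.8, so their ratios are less certain. Within 1 duration r was 0.95 (Dpyd) to 0.999 (Lyve1) at 1 month. At 1 week it was 0.44 (Postn) to 0.96 (Dipk1b), with 0.72 for Haus8 and 0.60 for Pla2g2d. With 10 arrays and 9165 genes, high values are found for some genes by the ranking itself.

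**Figure D4:**
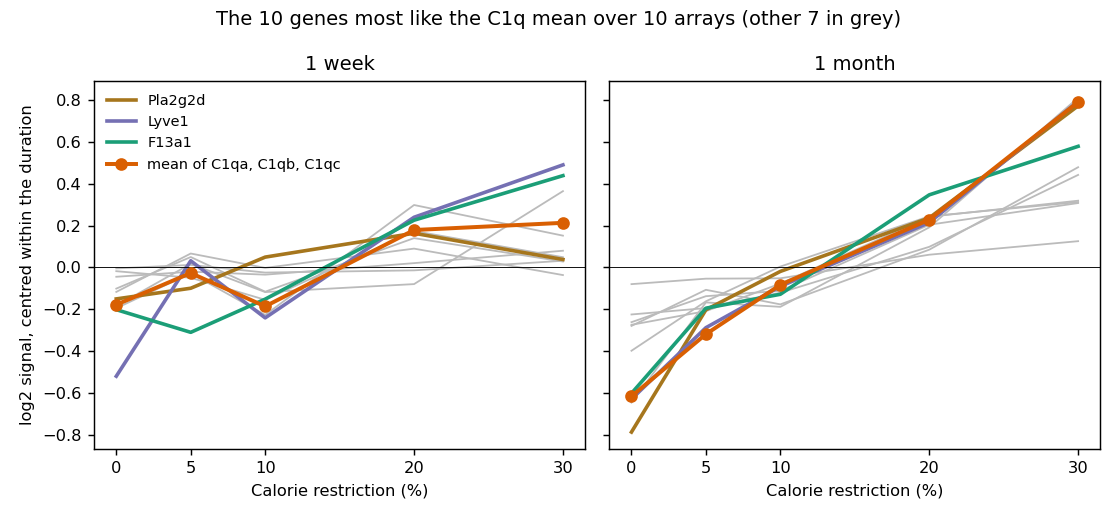
log2 signal, centred within each duration, against the level of calorie restriction in percent for the mean of C1qa, C1qb and C1qc (orange, points) and the 10 genes with the highest correlation to it over 10 arrays. Lyve1, F13a1 and Pla2g2d are coloured and the other 7 are grey; at 1 month Lyve1 and Pla2g2d change by 1.42 and 1.56 from control to 30% CR, against 1.41 for C1q.

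Of array quality, the 3' to 5' signal ratio of actin, which rises as RNA degrades, reached 1.70 for the control of 1 week, while restricted arrays ranged from 1.24 to 1.56 there. At 1 month the control had 1.44 and the restricted arrays ranged from 1.37 to 1.60. That of GAPDH was 1.02 to 1.08 on all 10 arrays. The actin ratio of the 1-week control was the highest of the 10, and its part in the 1-week ratios was not tested.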

How the data were processed

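RNA from 5 rats per group was pooled and hybridised to 1 array per group. The authors computed MAS5 signal intensities, which were deposited on a linear scale with 1 value per probe set and array and no detection calls; the software version is not given in the sources used here. The deposited intensity was raised to at least 0.1 and converted to log2, with no further normalization. The 57 control probe sets were left out, and the 15521 of 31042 others at or above the 50th percentile of mean log2 signal were tested.

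Gene names came from the platform annotation and were updated by gene identifier through a RefSeq table of GRCr8. Of the 31099 probe sets 20832 carried 1 gene, 436 several and 9831 none, and 20764 were matched. Fits used limma 3.58.1 (lmFit, eBayes with trend) in R 4.3.3 on all 10 arrays, with 7 residual degrees of freedom and Benjamini-Hochberg adjustment at 0.05 over all probe sets tested. The duration contrast had the level as a covariate, and the dose trend and the contrast of restricted against control arrays had duration as a factor. Every p-value therefore measures scatter around the model between pools, not between rats. The scripts were tested on simulated data. Where a gene had several probe sets, the one with the highest mean log2 signal was used.

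The genes and lists were chosen with earlier results of these data known. Named were the 6 genes; of each complement list the genes that passed a test (up to 4) or came nearest (2); of marker lists up to 4 of the brightest; and the 10 genes most like C1q. Cd163, Cd68, Csf1r, Cd14, Mrc1, Scara5, Clec3b and Mfap5 were named after their values were seen. Alternatives were quantile normalization, median centring, an offset of 32 before log2, other filters (none, or the 70th percentile), eBayes without trend, the level as a block (duration), the rank of the level (dose trend), the mean of all probe sets of a gene (C1q ratios), the exchange of the arrays with conflicting labels, and leaving out each array; slopes without each array, and the repeat of all settings for named genes, were added after the data were seen. One listed item is not reported here.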

Additional observations from a re-analysis of the deposited data

Results flagged for a closer look

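Of 32 tested complement genes and relatives, 3 lay on opposite sides of the control in all 4 restricted arrays of the 2 durations. The difference between durations was not tested, and the 4 ratios of a duration share 1 control array. The share of all probe sets with this pattern was not computed, so nothing is read from the count. Within a duration, 23.9% of all probe sets at 1 week and 24.4% at 1 month were above control at all 4 levels. Cd55 was below control at 1 week (log2 ratios from -0.35 to -0.01) and above it at 1 month (0.09 to 0.49), and its mean ratio differed by 0.47 (1 month minus 1 week). Clu, clusterin, which binds the terminal complex, went the same way (-0.27 to -0.11, then 0.05 to 0.24), with a difference of 0.31. C5ar1, the receptor for the C5a peptide, went the other way (0.21 to 1.12, then -1.10 to -0.16), with a difference of -1.07 at signals of 15.6 to 56.5, near the filter. Groups of 1 array were not examined for a deviating sample.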

How the results depend on the processing

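The mean log2 ratio of the 3 C1q chains at 1 month (0.77) kept its direction under every alternative run. Of these, the mean of all probe sets of a gene could change nothing at either duration, as each chain has 1 probe set. The 1-month mean was 0.56 to 0.93 when 1 restricted array was left out and 0.52 with the offset of 32. These values lay within 0.48 of it, the SD over the 4 levels, which holds the change with the level itself and is a wide mark. The mean of 1 week (0.22) was 0.17 to 0.30 with 1 restricted array left out and 0.12 with median centring. It moved by less than its SD of 0.19 except with the 1-week control and 5% CR arrays exchanged (0.034). The control array on which the ratios rest was not left out. The probe sets called by duration, 5263, were 1574 with quantile normalization and 1385 with median centring, and 4402 to 4932 with 1 array left out. The dose trend called 310 probe sets, but 200 with median centring, 161 with the 2 arrays exchanged and 73 with eBayes without trend, and 86 (without 30% CR for 1 week) to 368 (without 5% CR for 1 month) with 1 array left out. Leaving out the 1-week control gave 117, the 1-month control 123 and 20% CR for 1 week 185. Restricted against control arrays called 311, but 1 with the 2 arrays exchanged and 77 with eBayes without trend, and 27 (without the 1-week control) to 455 (without 5% CR for 1 week) with 1 array left out, with 112 without the 1-month control. The other settings of these counts stayed within 1.5 times.

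In the duration contrast the sign of C1qa (-0.02) turned with quantile normalization (0.19), with median centring (0.27) and when some arrays were left out (-0.16 to 0.062), and that of C1qb (-0.10) with quantile normalization (0.13), with median centring (0.19) and without the 1-week control (0.0052; from -0.21 over all arrays left out). No alternative brought C1qa or C1qb past the threshold. An offset of 32 before log2 lowered the 1-month slopes of C1qa, C1qb and C1qc to 0.30, 0.31 and 0.34. Where no cause is given above, the cause was not tested.

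No paired analysis was possible because the replicate number is 1 in every group. A fit that matched the durations by level (level as a block, 4 residual degrees of freedom) called 4865 probe sets, with limma's adjusted p at 0.0321 for C1s and 0.0137 for C1r. With 1 pool per group the spread between rats is unknown, and faint probe sets such as that of C3 are limited by signal over background.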
